A study of Mus musculus with 6 samples.

Results

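Granzymes are the serine proteases of cytotoxic granules, and perforin is the protein that forms pores through which they enter a target cell. Their messages were examined in CT26 tumors, and 10 genes of the 23557 in the table were chosen by name: Gzma, Gzmb, Gzmc, Gzmd, Gzme, Gzmf, Gzmg, Gzmk, Gzmm and Prf1. The set was also selected on a measured value, the high level of Gzmd in a NaCl tumor, so the levels of Gzmd and of its close neighbours Gzmc, Gzme, Gzmf and Gzmg are given as a description, without a test. CT26 is a colon carcinoma line of BALB/c origin, and 500000 cells were placed under the skin of female BALB/c mice of 7 weeks, so the host kept its own T and NK cells. From day 6 and 2 times a week, the mice received intraperitoneal H89, an isoquinoline inhibitor of protein kinase A and of other kinases, at 10 mg/kg in the H89 group and NaCl in the control group, and whole tumors were taken at day 14. Each group held 3 tumors, numbered 1 to 3, each from its own mouse and each measured by bulk RNA sequencing. The comparison asks how the treatment goes with the messages of the killing machinery in the tumor.

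Cytotoxic T lymphocytes and NK cells load granzymes and perforin into granules and release them toward a bound target. Granzyme B cuts after aspartate and activates caspases and Bid, granzyme A cuts after basic residues and acts without caspases, and granzyme K has a specificity like that of granzyme A. Granzymes C to G are found in the mouse and have no direct counterpart in the human genome, and they are known from strongly activated cytotoxic T cells and from uterine NK cells. In these bulk tumors, fewer cells of a type and less RNA per cell cannot be told apart.

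The total estimated count ranged from 27067349 to 31958793 per tumor, so that 1 count was 0.0313 to 0.0369 counts per 1000000 (CPM). The fit covered 13118 genes whose mean CPM reached 0.5, and 208 of them (1.59%) had a Benjamini-Hochberg adjusted p under 0.05 in edgeR's quasi-likelihood test, and the median log2 fold change was 0.0040. Fold changes are H89 over NaCl, so positive log2 values mark higher levels with H89. Gzmk was under the filter, and the other 9 genes passed it. The edgeR p-values set the difference between the groups against the spread of tumors within groups, for these 6 tumors only.

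The genes lie on 3 chromosomes. Gzmb, Gzmc, Gzmf, Gzmg, Gzmd and Gzme share one strand of a stretch of 144.6 kb on mouse chromosome 14 (GRCm38, GENCODE M21). From low to high coordinate the order is Gzme (chr14:56117626-56120625), Gzmd (chr14:56129556-56132608), Gzmg (chr14:56156582-56159579), Gzmn, Gzmf (chr14:56205263-56211417), Gzmc (chr14:56231441-56234656) and Gzmb (chr14:56258838-56262260). The genes of mast cell proteases and cathepsin G follow beyond Gzme. Gzma (chr13:113093825-113100981) and Gzmk (chr13:113171608-113225908) lie on chromosome 13, and Gzmm (chr10:79689020-79695261) and Prf1 (chr10:61297833-61304680) on chromosome 10.

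The coding starts of the 6 genes on chromosome 14 are shown because the paralogs are so alike that a short read can fit several of them. Each line is the first 90 spliced coding bases on the minus strand, 5′ to 3′, from the reference genome, with capitals where the base differs from Gzmd at the same position. The capitals number 1 in Gzmg, 3 in Gzme, 5 in Gzmf, 10 in Gzmc and 31 in Gzmb.
Gzmd: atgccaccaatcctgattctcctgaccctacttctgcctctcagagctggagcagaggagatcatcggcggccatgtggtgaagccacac
Gzme: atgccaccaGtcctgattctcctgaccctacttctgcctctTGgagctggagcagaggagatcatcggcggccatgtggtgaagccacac
Gzmg: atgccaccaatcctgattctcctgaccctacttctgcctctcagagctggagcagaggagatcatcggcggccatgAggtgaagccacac
Gzmf: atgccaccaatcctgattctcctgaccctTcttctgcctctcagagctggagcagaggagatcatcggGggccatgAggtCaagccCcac
Gzmc: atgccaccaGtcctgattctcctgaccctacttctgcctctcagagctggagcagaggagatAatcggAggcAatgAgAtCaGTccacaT
Gzmb: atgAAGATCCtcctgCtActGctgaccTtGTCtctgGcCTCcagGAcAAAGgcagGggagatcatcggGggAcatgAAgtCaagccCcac

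Over the whole coding sequence, Gzmd and Gzme were identical at 94.8% of aligned bases, and Gzmd and Gzmg at 88.7%. Gzmb was nearest to Gzmc, at 76.7%, and shared 69.6% with Gzmd. This likeness bears on how far each gene's count can be read. Of the 31-base words in the transcripts of Gzmd, 38.2% also occur in other genes and 25.2% occur in Gzme. The share was 42.1% for Gzme, 34.9% for Gzmf, 33.8% for Gzmg and 14.8% for Gzmc, but 1.35% for Gzmb, 0.392% for Prf1 and 0 for Gzma, Gzmk and Gzmm. Part of the words of Gzmf (13.9%) occur in Gm4022, a gene that overlaps it on the opposite strand, and Esm1 overlaps Gzmk in the same way. The deposited estimates were more than 0.01 from a whole number in at least 1 tumor for Gzmc, Gzmd, Gzme and Gzmg, and in 0 tumors for the other 6 genes. The values of Gzmd to Gzmg singly are therefore less certain than their sum.

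**Figure D1:**
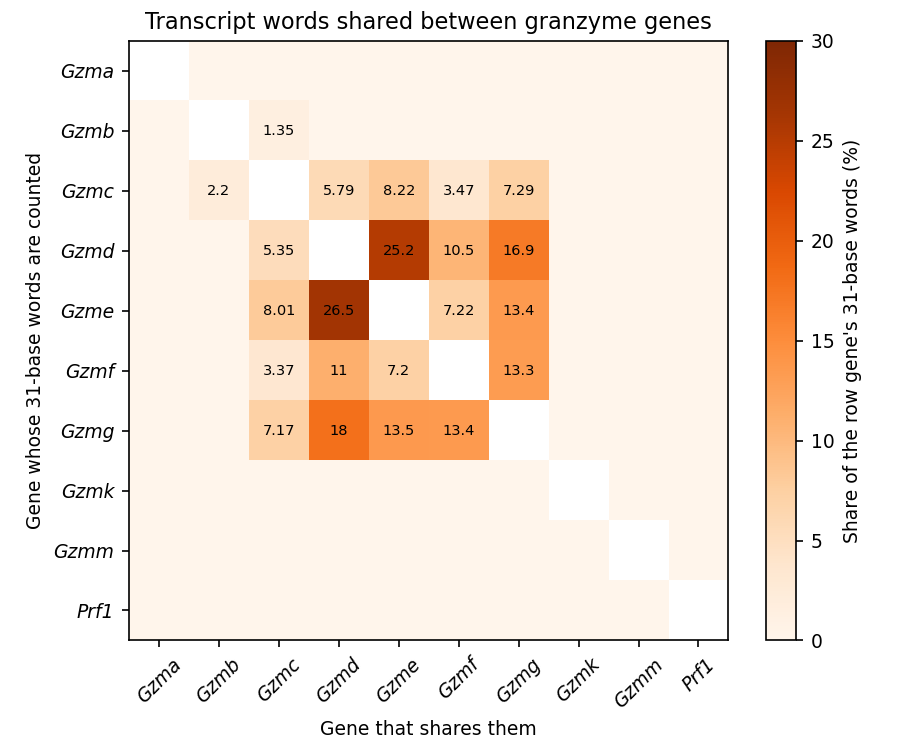
Share of the 31-base transcript words of each row gene that also occur in each column gene, in percent, from GENCODE M21 transcripts. Shared words were found among the 6 genes of chromosome 14, most between Gzmd and Gzme (25.2% and 26.5%), and blank cells are 0.

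The promoters of Gzmc to Gzmg are also copies of one another, with 86.1% to 94.0% identity in pairs, against 54.2% to 58.7% with Gzmb, over windows from 250 bases before to 50 after the start site (RefSeq, GRCm38.p6). All 10 genes matched a promoter entry, Gzmm with 2. In all, 5 short motifs, chosen after these promoters had been read, were searched on both strands: the cAMP response element TGACGTCA, which CREB factors bind, its core TGACG, the AP-1 motif TGANTCA, the RUNX motif TGTGGT and TATAA. The stretches below show the place of the cAMP response element, an element classically read out downstream of protein kinase A, with the 8 bases at that place in capitals. They lie on the minus strand at chr14:56234667-56234754 (Gzmc), chr14:56132607-56132694 (Gzmd), chr14:56120640-56120727 (Gzme), chr14:56211442-56211529 (Gzmf) and chr14:56159609-56159696 (Gzmg).
Gzmc: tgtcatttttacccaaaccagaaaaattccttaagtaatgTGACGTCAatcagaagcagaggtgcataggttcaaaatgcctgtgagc
Gzmd: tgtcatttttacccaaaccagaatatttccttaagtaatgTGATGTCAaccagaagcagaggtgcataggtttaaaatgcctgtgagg
Gzme: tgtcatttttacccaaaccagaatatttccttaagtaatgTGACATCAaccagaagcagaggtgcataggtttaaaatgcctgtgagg
Gzmf: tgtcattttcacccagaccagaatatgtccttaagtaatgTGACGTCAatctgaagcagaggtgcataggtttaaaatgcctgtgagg
Gzmg: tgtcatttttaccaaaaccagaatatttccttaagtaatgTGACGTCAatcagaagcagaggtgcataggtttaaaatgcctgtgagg

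TGACGTCA stood in Gzmc, Gzmf and Gzmg, beginning 57, 82 and 77 bases before the start site, and in 1.79% of all 32851 promoter entries. Counted from 1 at the 5′ end of the motif, Gzmd differed by C4T and Gzme by G5A, and no other window of the 10 genes held the full motif. The core TGACG, found in 20.8% of all promoters, is part of the full motif in these 3 genes and stood alone in Gzmb and Prf1. TGTGGT, found in 16.8% of all promoters, stood 2 times in each of the 6 genes of chromosome 14 and 1 time in Gzma, Prf1 and one entry of Gzmm. TATAA, found in 24.9%, stood in Gzma and one entry of Gzmm. The AP-1 motif, found in 7.81%, stood in Gzmb alone, and the 120 bases before the Gzmb start site (chr14:56262335-56262454, minus strand) are shown with it and both TGTGGT matches in capitals. These matches are letters in the C57BL/6J reference, and no binding was measured. The RefSeq start site of Gzmb used here lies upstream of the GENCODE start at chr14:56262260. Motif distances in Gzmb and its promoter identities refer to the RefSeq site.
Gzmb: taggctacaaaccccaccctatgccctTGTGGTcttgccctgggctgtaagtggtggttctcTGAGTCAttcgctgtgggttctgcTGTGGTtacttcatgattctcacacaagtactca

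Among the granzymes of common cytotoxic cells, Gzma and Gzmb were the most abundant, and neither differed between groups beyond the spread of the tumors. Gzma was at 23.3, 20.2 and 5.27 CPM in NaCl tumors 1 to 3 and at 33.3, 20.996 and 48.1 CPM in H89-treated tumors 1 to 3. The groups overlapped only where H89-treated tumor 2 lay below NaCl tumor 1, and NaCl tumor 3 was far below the rest. The mean was 16.2 ± 9.62 CPM (SD, n = 3) in NaCl and 34.1 ± 13.6 CPM (SD, n = 3) in H89, a log2 fold change of 0.99 (SE 0.50, edgeR Benjamini-Hochberg adjusted p = 0.259, exact two-sided permutation p = 0.2, where 0.1 is the smallest possible). With 1 tumor left out it ran from 0.57 (without NaCl tumor 3) to 1.37 (without NaCl tumor 1).

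Gzmb was at 38.4, 25.5 and 6.28 CPM in NaCl and at 26.5, 22.6 and 81.1 CPM in H89-treated tumors. H89-treated tumor 3 was the highest and NaCl tumor 3 the lowest, while the other 4 tumors were mixed. The log2 fold change was 0.79 (SE 0.65, edgeR adjusted p = 0.483, exact permutation p = 0.5), and with 1 tumor left out it ran from 0.016 (without H89-treated tumor 3) to 1.38 (without NaCl tumor 1), with 0.34 without NaCl tumor 3.

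Prf1, the pore former, followed Gzmb closely (Pearson r = 0.96 of log2(CPM + 0.5) over the 6 tumors, a description over points that share libraries). Its CPM was 25.1, 8.98 and 2.69 in NaCl and 9.46, 6.85 and 37.3 in H89-treated tumors. The highest tumor of each group, NaCl 1 and H89 3, stood apart from the other tumors of its group. The log2 fold change of 0.43 (SE 0.82, edgeR adjusted p = 0.772, exact permutation p = 0.6) changed sign to -0.64 without H89-treated tumor 3 and to -0.042 without NaCl tumor 3.

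Gzmk and Gzmm, the granzymes with trypsin-like and methionine-directed specificity, were scarce. Gzmk was at 0.447, 0.148 and 0.179 CPM in NaCl and at 0.245, 0.344 and 0.840 CPM in H89-treated tumors, 4 to 26 counts per tumor. With no filter its log2 fold change was 0.77 (SE 0.60, edgeR adjusted p = 0.516, exact permutation p = 0.4). Gzmm was at 0.894, 0.554 and 0.538 CPM in NaCl and at 0.806, 0.751 and 0.679 CPM in H89-treated tumors. It was the steadiest of the family, with 15 to 26 counts per tumor and a log2 fold change of 0.09 (SE 0.32, edgeR adjusted p = 0.883, exact permutation p = 0.4) that turned negative in 3 of 11 alternatives. Of these 5 genes, with Gzmk taken from the fit without a filter, 0 passed the Benjamini-Hochberg threshold in the edgeR fit or in any alternative that gave them an adjusted p, against 1.59% of all genes, and 0 of them had an unadjusted p under 0.05, against 25.0% of all genes. The standard errors limit how small a difference could have been detected here.

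Gzmc to Gzmg behaved otherwise. All 5 had their highest level in NaCl tumor 1, and the next were NaCl tumor 2 and H89-treated tumor 3. Gzmd was at 93.9, 12.1 and 1.11 CPM in NaCl and at 0.560, 1.502 and 12.9 CPM in H89-treated tumors. It was therefore high in NaCl tumor 1, intermediate in 1 tumor of each group and near 1 CPM in the other 3.

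Gzmg had the widest range of the family, with 100.3 CPM (2917 counts) in NaCl tumor 1 and 0.105 CPM (3 counts) in H89-treated tumor 1, a ratio of 955 (exact 95% counting interval 326 to 4633). The interval covers counting error only. It leaves out the choice of these tumors as the highest and lowest, and the split of reads among like genes. The other tumors were at 5.21 (NaCl 2), 0.359 (NaCl 3), 0.782 (H89 2) and 9.68 CPM (H89 3). Gzmf was at 85.9, 7.61 and 0.466 CPM in NaCl and at 0.420, 1.41 and 16.5 CPM in H89-treated tumors. For both genes the order of the tumors was NaCl 1, H89 3, NaCl 2, H89 2, NaCl 3 and H89 1.

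Gzme, the closest relative of Gzmd, was at 29.8, 4.37 and 0.430 CPM in NaCl and at 0.280, 0.407 and 4.23 CPM in H89-treated tumors. Gzmc, the member of the cluster nearest to Gzmb in place and sequence, was at 38.5, 25.1 and 5.06 CPM in NaCl and at 3.68, 5.41 and 34.0 CPM in H89-treated tumors. It varied less than the other 4, and NaCl tumor 2 was not far below NaCl tumor 1. In all 5 genes the 2 groups overlapped.

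**Figure D2:**
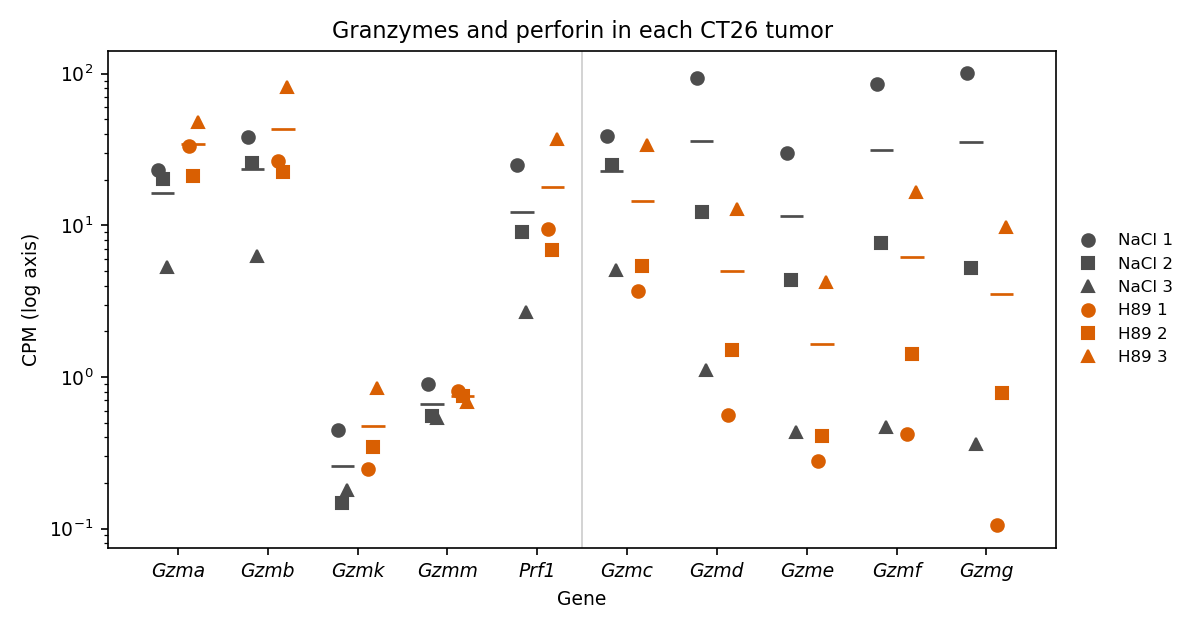
CPM of each gene in each tumor on a log axis, NaCl in gray and H89 in orange, with a marker shape for each tumor number and a line at the group mean. On the right, Gzmc to Gzmg reach their highest level in NaCl tumor 1, from 29.8 CPM for Gzme to 100.3 CPM for Gzmg, while on the left Gzma, Gzmb and Prf1 are highest in H89-treated tumor 3.

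These genes were among the most variable in the tumors. Ranked by the standard deviation of log2(CPM + 0.5) over all 6 tumors, Gzmg stood at 2, Gzmf at 3, Gzmd at 5 and Gzme at 6 of 13118 genes. Gzmc stood at 25, Prf1 at 48, Gzmb at 61 and Gzma at 97, while Gzmm stood at 7524. The highest tumor exceeded the lowest 167-fold for Gzmd, 204-fold for Gzmf and 106-fold for Gzme, and only 11 of the 13097 genes above 0 in every tumor varied by more than 100-fold. The median gene varied 1.44-fold. Since the set was chosen with Gzmd known to be high in a NaCl tumor, these ranks and ranges are a description only. Within NaCl alone, the coefficient of variation was 142% for Gzmd and 160% for Gzmg, against 59.2% for Gzma and 69.1% for Gzmb.

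The fold changes between groups followed from this spread. The log2 fold change was -0.79 for Gzmc, -2.97 for Gzmd, -2.93 for Gzme, -2.48 for Gzmf and -3.45 for Gzmg. Without NaCl tumor 1 it was -0.15 for Gzmc, -0.50 for Gzmd and -0.62 for Gzme, and it changed sign to 0.51 for Gzmf and 0.25 for Gzmg. Without H89-treated tumor 3 the values ran the other way, from -2.39 for Gzmc to -6.33 for Gzmg. A single tumor in either group thus set the size of these differences, and for Gzmf and Gzmg NaCl tumor 1 set the sign.

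**Figure D3:**
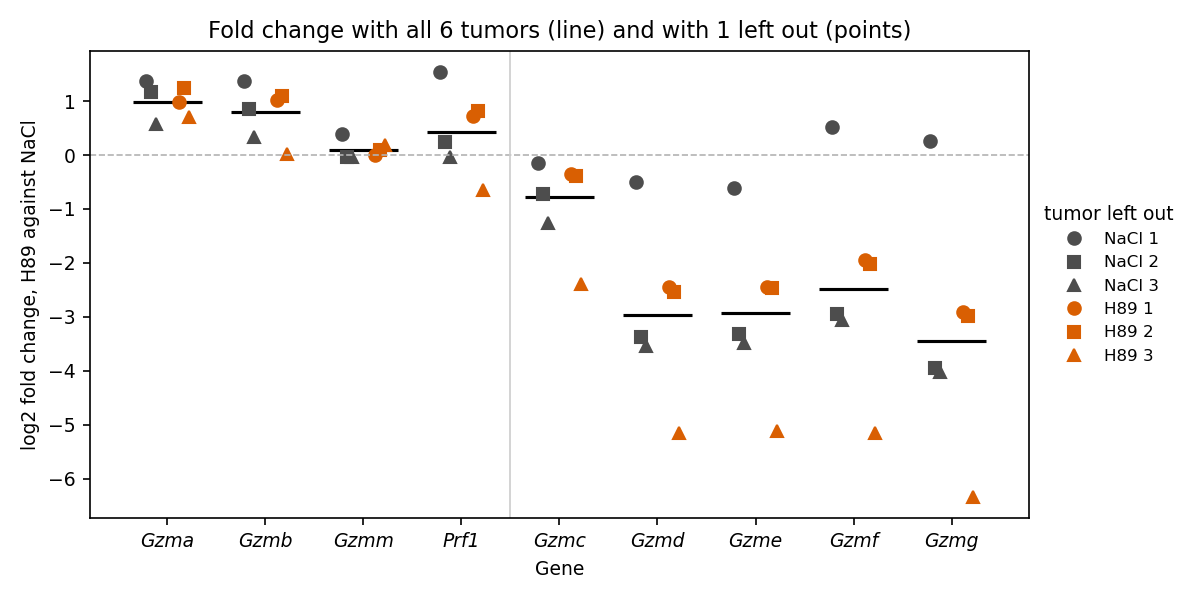
Log2 fold change, H89 against NaCl, from edgeR's fit with all 6 tumors (black line) and with 1 tumor left out (points, colored and shaped by the tumor left out). Leaving out NaCl tumor 1 moved Gzmd from -2.97 to -0.50 and Gzmf from -2.48 to 0.51, and leaving out H89-treated tumor 3 moved Prf1 from 0.43 to -0.64.

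Corrected for transcript length, the order of the genes differed from tumor to tumor. In NaCl tumor 1, Gzmg (110.4 CPM per kb), Gzmd (97.4) and Gzmf (93.5) led, ahead of Gzmc (43.1), Gzme (32.5), Gzmb (26.8) and Gzma (23.3), with Prf1 at 10.1. In H89-treated tumor 3, Gzmb (56.5 CPM per kb), Gzma (48.3) and Gzmc (38.0) led, ahead of Gzmf (18.0), Prf1 (15.1), Gzmd (13.4), Gzmg (10.6) and Gzme (4.62). In H89-treated tumor 1, Gzma (33.4 CPM per kb) and Gzmb (18.4) stood above Gzmc (4.11) and Prf1 (3.82), and Gzmd to Gzmg were between 0.116 and 0.581.

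By group mean, the NaCl order was Gzmg (38.8 ± 62.0 CPM per kb, SD, n = 3), Gzmd (37.0 ± 52.6), Gzmf (34.1 ± 51.6), Gzmc (25.6 ± 18.8), Gzmb (16.3 ± 11.3), Gzma (16.3 ± 9.66), Gzme (12.6 ± 17.4), Prf1 (4.95 ± 4.67), Gzmm (0.514 ± 0.156) and Gzmk (0.198 ± 0.126). Apart from Gzmm and Gzmk, the distance between neighbours in this order was smaller than the larger of their SDs. The H89 order was Gzma (34.2 ± 13.6 CPM per kb, SD, n = 3), Gzmb (30.2 ± 22.8), Gzmc (16.1 ± 19.0), Prf1 (7.22 ± 6.82), Gzmf (6.67 ± 9.84), Gzmd (5.17 ± 7.11), Gzmg (3.87 ± 5.88), Gzme (1.79 ± 2.45), Gzmm (0.579 ± 0.0494) and Gzmk (0.365 ± 0.245). Here too no neighbours were farther apart than the larger of their SDs.

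The cluster was also set against the other genes of the same tumor, as a description, since Gzmd was known to be high in NaCl tumor 1. Gzmc to Gzmg together made up 79.8%, 49.6% and 33.2% of the counts of all 10 genes in NaCl tumors 1 to 3, and 6.70%, 15.6% and 31.5% in H89-treated tumors 1 to 3. The closest tumors, NaCl 3 and H89-treated 3, nearly met. Gzmb took 8.80% to 28.0% in NaCl and 33.1% to 37.0% in H89-treated tumors. Gzma took 5.33% to 23.6% in NaCl and 19.6% to 44.2% in H89-treated tumors, so the NaCl and H89 ranges of Gzma met.

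**Figure D4:**
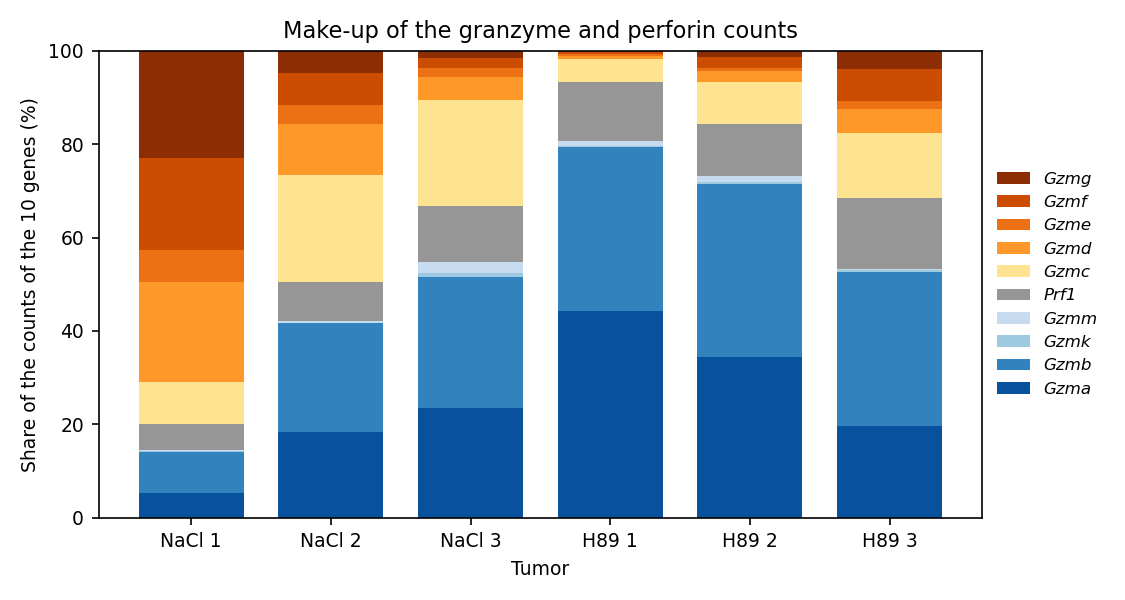
Share of each gene in the summed counts of the 10 genes in each tumor, in percent, with the cluster Gzmc to Gzmg in yellow to brown, Prf1 in gray and the other granzymes in blue. The cluster takes 79.8% in NaCl tumor 1 and 6.70% in H89-treated tumor 1, with the closest tumors of the groups at 33.2% (NaCl 3) and 31.5% (H89 3).

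The ratio of the summed cluster to Gzmb, each with 0.5 CPM added, was 8.96, 2.11 and 1.17 in NaCl tumors and 0.205, 0.434 and 0.954 in H89-treated tumors. The lowest NaCl ratio, 1.17, was above the highest H89 ratio, 0.954. A ratio of 1 has no special meaning here, because the sum holds several genes and CPM is not corrected for transcript length. The difference of the mean log2 ratios was -2.67, with SDs of 1.51 in NaCl and 1.11 in H89 (n = 3 each). Leaving out NaCl tumor 1 gave -1.84, leaving Gzmd out of the sum gave -2.55, and the 10 alternatives fixed for this ratio lay between -3.31 and -1.84. Of 13117 genes, 0.526% had a ratio to Gzmb whose 3 H89 values all lay under the 3 NaCl values. The genes were chosen with Gzmd known to be high in NaCl tumor 1, so this share is given as background only.

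Gzmc carried this difference most evenly. Its ratio to Gzmb was 1.00, 0.984 and 0.820 in NaCl and 0.155, 0.256 and 0.423 in H89-treated tumors, a difference of -1.86 in mean log2 ratio with SDs of 0.16 and 0.72. The 3 NaCl tumors thus had nearly the same Gzmc to Gzmb ratio although Gzmb itself varied 6.12-fold among them. The ratios of Gzmd, Gzme and Gzmg to Gzmb did not overlap either, and that of Gzmf did. For Gzmg the gap was narrow, 0.127 in NaCl tumor 3 against 0.125 in H89-treated tumor 3, and without the added 0.5 CPM the groups overlapped (0.0571 against 0.119). Gzma to Gzmb (0.610, 0.794 and 0.852 in NaCl, 1.25, 0.932 and 0.595 in H89) and Prf1 to Gzmb (0.657, 0.364 and 0.471 in NaCl, 0.369, 0.319 and 0.463 in H89) overlapped.

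**Figure D5:**
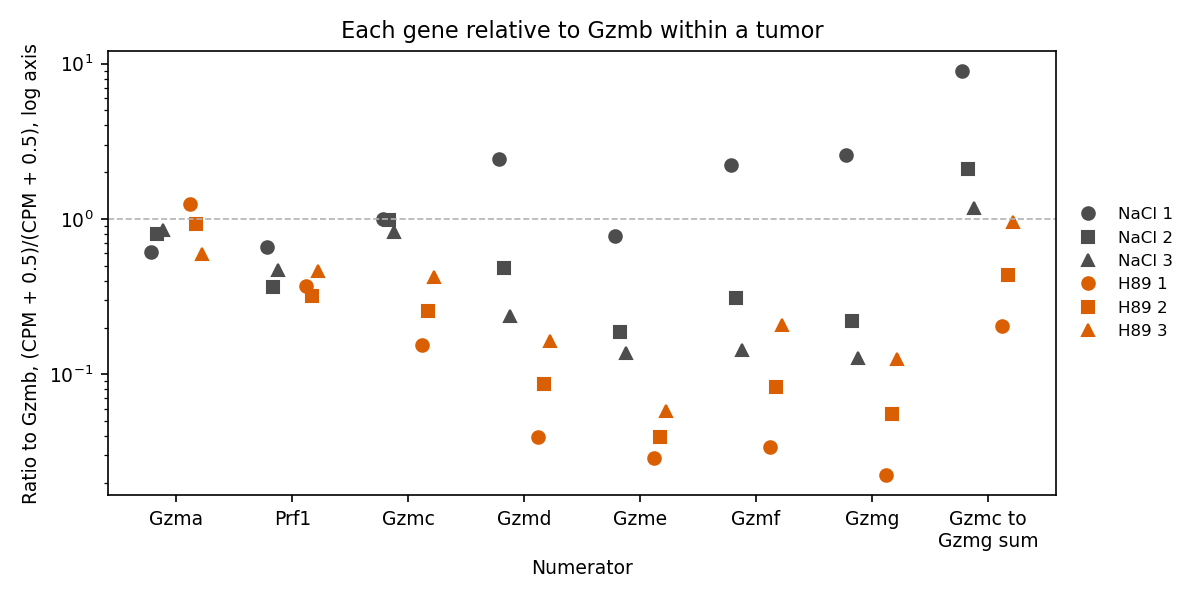
Ratio of each gene, and of the Gzmc to Gzmg sum, to Gzmb in each tumor, on a log axis, with 0.5 CPM added to both terms. The dashed line at 1 is a guide only, since CPM is not corrected for transcript length. The sum lies between 1.17 and 8.96 in NaCl tumors and between 0.205 and 0.954 in H89-treated tumors, while Gzma and Prf1 overlap between groups.

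The choice of the reference gene mattered. Against Prf1, the cluster's ratio was 13.6, 5.80 and 2.48 in NaCl and 0.557, 1.36 and 2.06 in H89-treated tumors, again without overlap (background 0.0457%). Against Gzma, it was 14.7, 2.66 and 1.37 in NaCl and 0.164, 0.466 and 1.60 in H89-treated tumors, and the groups overlapped through NaCl tumor 3 (background without overlap 18.9%). With Gzmd left out of the sum, an alternative added after seeing the data, the ratio to Prf1 was 9.97, 4.52 and 2.14 in NaCl and 0.5005, 1.16 and 1.72 in H89-treated tumors, and the ratio to Gzma still overlapped. As for Gzmb, these shares of all genes are background only, and nothing is read from them about genes chosen with Gzmd known. Against the sum of Gzma, Gzmb and Gzmk, it was 5.57, 1.19 and 0.648 in NaCl and 0.0916, 0.225 and 0.596 in H89-treated tumors. Against Cd8a, the alpha chain of CD8, the ratio was 88.2, 19.9 and 2.31 in NaCl and 0.615, 2.41 and 3.96 in H89-treated tumors, so the groups overlapped. Against the T cell gene Cd3e it was 84.9, 24.6 and 4.61 in NaCl and 1.08, 3.37 and 8.49 in H89-treated tumors, also with overlap.

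The genes differed in how alike their patterns over the 6 tumors were. Pearson's r of log2(CPM + 0.5) was 0.914 to 0.995 between pairs of Gzmc to Gzmg, and 0.83 to 0.96 between pairs of Gzma, Gzmb and Prf1. Across these groups of genes, Gzmd had r = 0.30 with Gzma, 0.55 with Gzmb and 0.71 with Prf1, and Gzmc had 0.40, 0.66 and 0.77. The values with Prf1 came close to those within a group, up to 0.80 for Gzmf. Gzmm, which varied little, had 0.090 to 0.55 with the other 8 genes. These values describe 6 tumors that share libraries between genes, and for Gzmc to Gzmg the genes also share transcript words. Outside the family, the 8 genes most like Gzmd were Srebf2 (r = 0.99), Hdac11, Smpd1, Gp1ba, Pdcd7, Rprd1b, Cant1 and Atp8b2. Their range was small, as for Srebf2, a regulator of cholesterol synthesis, at 370, 307 and 252 CPM in NaCl and 238, 270 and 313 CPM in H89-treated tumors. The 8 genes most like Gzmb were Bst1, Pld2, Zbtb32, 4930519F16Rik, Scin, Sytl3, Gem and Cldnd1 (r = 0.976 to 0.998). Sytl3, which encodes a synaptotagmin-like protein of vesicle traffic, was at 2.00, 1.15 and 0.394 CPM in NaCl and at 1.40, 1.13 and 3.26 CPM in H89-treated tumors.

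Among 18 genes that process, store or release granzymes, 15 had a log2 fold change above 0 (median 0.38, against 0.0040 for all genes), and 0 had an adjusted p under 0.05 in edgeR. DESeq2's Wald test, which called 10.4% of all genes it adjusted, called 4 of them, with Ctsc, Ctsw and Unc13d higher and Ctsl lower (-0.33) in H89-treated tumors. At an unadjusted p under 0.05, 4 were higher (background 13.1%) and 2 lower (background 11.9%). This list and those below were chosen with earlier results of these data known. Their counts beside the shares of all genes are therefore a description. Ctsw, cathepsin W of cytotoxic cells, was at 4.58, 3.18 and 2.22 CPM in NaCl and at 11.3, 5.95 and 12.8 CPM in H89-treated tumors. It did not overlap, as for the 20.5% of genes tested that were higher in every H89-treated tumor. Its log2 fold change was 1.51 (SE 0.35, edgeR adjusted p = 0.0722). Ctsc, cathepsin C, which cuts the propeptide from granzymes and so activates them, was at 176, 267 and 204 CPM in NaCl and 334, 280 and 528 CPM with H89, and its log2 fold change was 0.75 (SE 0.23, edgeR adjusted p = 0.108). Igf2r, a mannose 6-phosphate receptor that can also bind granzyme B, had 0.38 (SE 0.12, edgeR adjusted p = 0.115).

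The 4 serpins listed as granzyme inhibitors all had a log2 fold change above 0, with a median of 0.83. At an unadjusted p under 0.05, 3 were higher (background 13.1%). The adjusted threshold was passed by 0 in edgeR (background 1.59%) and by 2, Serpinb9 and Serpina3n, in DESeq2 (background 10.4%). Serpinb9, which blocks granzyme B, was at 22.8, 23.1 and 15.3 CPM in NaCl and at 37.2, 27.9 and 48.1 CPM in H89-treated tumors. Each H89-treated tumor exceeded each NaCl tumor, as for 20.5% of all genes, and the log2 fold change was 0.81 (SE 0.22, edgeR adjusted p = 0.0883). Serpina3n, an extracellular inhibitor of granzyme B, had 1.26 (SE 0.44, edgeR adjusted p = 0.136), and Serpinb6b 0.85 (SE 0.34, edgeR adjusted p = 0.172).

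Of 12 granzyme targets and death effectors, 5 had a log2 fold change above 0 and the median was -0.050. In edgeR, 0 passed the adjusted threshold (background 1.59%). Only 1, Dffb, had an unadjusted p under 0.05 (background 25.0%), and it alone passed in DESeq2 (background 10.4%). Dffb, the nuclease set free when its inhibitor is cut, had 0.81 (SE 0.20, edgeR adjusted p = 0.0764). It was higher in each H89-treated tumor than in any NaCl tumor, as were 20.5% of the genes tested. Set, part of the complex that granzyme A cuts, had -0.19 (SE 0.08, edgeR adjusted p = 0.201), and Casp8 0.26 (SE 0.11, edgeR adjusted p = 0.205).

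Of 17 tested genes for cytokines, receptors and transcription factors that induce granzymes, 16 had a log2 fold change above 0 (median 0.60). At an unadjusted p under 0.05, 7 were higher (background 13.1%). Among them, Il15ra had already been reported by the paper as raised by H89 in these tumors. The adjusted threshold was passed by 0 in edgeR (background 1.59%) and by 1, Il15ra, in DESeq2 (background 10.4%). Il15ra, which presents interleukin 15 to neighbouring cells, was at 5.23, 6.10 and 1.69 CPM in NaCl and at 12.1, 8.01 and 14.7 CPM with H89, and its log2 fold change was 1.34 (SE 0.43, edgeR adjusted p = 0.116). Stat4 had 1.02 (SE 0.35, edgeR adjusted p = 0.133) and Tbx21, the factor T-bet, had 1.42 (SE 0.55, edgeR adjusted p = 0.169). The low genes Il2 and Il21 were under 0.5 CPM in the mean and were not tested.

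Markers of the cells that carry granzymes were detected in every tumor. All 12 measured T cell genes had a log2 fold change above 0 (median 1.24), 8 with an unadjusted p under 0.05 (background 13.1% higher). An adjusted p under 0.05 was reached by 0 in edgeR (background 1.59%) and by 4 in DESeq2 (Cd3d, Cd3g, Cd5 and Zap70, background 10.4%). The summed level of the 12 genes was 19.2 to 44.8 CPM in NaCl and 42.2 to 104.4 CPM in H89-treated tumors. The leading genes were Cd3g (1.64, SE 0.48, edgeR adjusted p = 0.101), Cd8a (1.76, SE 0.53, edgeR adjusted p = 0.104) and Cd247 (0.93, SE 0.29, edgeR adjusted p = 0.113). All 8 NK cell genes had a log2 fold change above 0 (median 1.53), 5 with an unadjusted p under 0.05 (background 13.1% higher). Adjusted calls numbered 0 in edgeR and 4 in DESeq2 (Ncr1, Klre1, Klrk1 and Klrd1), against 1.59% and 10.4% of all genes. Without the filter, edgeR called 1 (Klrd1, edgeR adjusted p = 0.0406). The 8 genes summed to 6.02 to 15.6 CPM in NaCl and 19.7 to 52.4 CPM in H89-treated tumors, led by Klrd1 (2.04, SE 0.42, edgeR adjusted p = 0.0563), Klre1 (1.83, SE 0.42, edgeR adjusted p = 0.0682) and Klrk1 (1.62, SE 0.41, edgeR adjusted p = 0.0813). NaCl tumor 3, lowest for Gzma, Gzmb and Prf1, also had the lowest summed T cell and NK cell levels, and H89-treated tumor 3 had the highest, and the part of these levels in the granzyme values was not tested.

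NaCl tumor 1, in which Gzmc to Gzmg were highest, did not have the highest T or NK cell level (44.8 and 15.6 CPM), but it had the highest summed level of mast cell and basophil genes. The summed CPM was 241.7 in NaCl tumor 1, 99.98 and 88.1 in NaCl tumors 2 and 3, and 92.7, 89.8 and 153.8 in H89-treated tumors 1 to 3. Of the 11 genes, all 11 were detected and 8 were tested, with log2 fold changes below 0 (median -0.22). At an unadjusted p under 0.05, 1 was lower (Tpsab1, background 11.9%), with 0 adjusted calls in edgeR or DESeq2. Tpsb2, a mast cell tryptase, was at 92.9 CPM in NaCl tumor 1, 52.1 CPM in H89-treated tumor 3 and 26.7 to 29.7 CPM in the other 4. Tpsab1 had a log2 fold change of -1.80 (SE 0.69, edgeR adjusted p = 0.163), and Kit -0.25 (SE 0.32, edgeR adjusted p = 0.654). Of the 11 genes, 7 were highest in NaCl tumor 1, most of them proteases. Kit, Hdc and Ms4a2 were highest in H89-treated tumor 3. The share of all genes highest in NaCl tumor 1 was not computed. Of the 7, Mcpt8 was under 0.5 CPM in the mean. Cma1, Mcpt4 and Mcpt8 are counted again among the neighbours of the cluster below, so those counts are not separate. Kit, the receptor for stem cell factor that marks mast cells, was at 6.43, 5.50 and 7.60 CPM in NaCl and at 3.15, 5.57 and 8.70 CPM in H89-treated tumors. The parallel with the granzymes was partial. NaCl tumor 2 was close to H89-treated tumor 3 for Gzmd (12.1 against 12.9 CPM) and Gzme (4.37 against 4.23 CPM). It was below H89-treated tumor 3 for Gzmc (25.1 against 34.0 CPM), Gzmf (7.61 against 16.5 CPM) and Gzmg (5.21 against 9.68 CPM). The mast cell sum was 99.98 CPM in NaCl tumor 2 and 153.8 CPM in H89-treated tumor 3. The part of mast cells in the Gzmc to Gzmg values was not tested.

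Most of the 9 protease genes listed as neighbours of the cluster on chromosome 14 were also highest in NaCl tumor 1. Mcpt4 was at 38.0 CPM there against 15.3 to 26.2 CPM in the other tumors, Cma1 at 37.4 against 13.6 to 26.8 CPM, Mcpt2 at 4.40 against 0.806 to 2.88 CPM and Ctsg at 1.48 against 0.179 to 1.00 CPM. Of the 8 listed neighbours detected, 7 were highest in NaCl tumor 1, some at very low counts, and the exception was Cma2. The share of all genes highest in that tumor was not computed. Mcpt4, Cma1 and Mcpt8 are also in the mast cell and basophil list. Gzmb, which lies next to Gzmc, was highest in H89-treated tumor 3 (81.1 CPM), and neighbours other than proteases were not listed. Between groups, of the 4 that were tested, Mcpt2, Mcpt4, Cma1 and Ctsg, which encode mast cell chymases and cathepsin G, all had a log2 fold change below 0, from -0.41 to -0.08, and 0 passed in DESeq2 or in edgeR with or without adjustment (edgeR adjusted p = 0.652 to 0.952). Gzmn, which lies between Gzmg and Gzmf, had 5 counts in NaCl tumor 1 and was at 0 in the other 5 tumors, where a count of 0 allows up to 3 counts. Mcpt8, a basophil protease next to Ctsg, was at 0.826 CPM in NaCl tumor 1 and at 0 to 0.406 CPM elsewhere.

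Other cell types that may hold granzymes were read in the same way. Of 6 plasmacytoid dendritic cell genes, 5 had a log2 fold change above 0 (median 1.28) and 4 were higher at an unadjusted p under 0.05 (background 13.1%). Adjusted calls numbered 0 in edgeR and 3 in DESeq2 (Siglech, Ccr9 and Klk1), against 1.59% and 10.4% of all genes. The paper had already reported Ccr9 as raised by H89 in these tumors. The list was led by Siglech (1.13, SE 0.27, edgeR adjusted p = 0.0722), Ccr9 (1.43, SE 0.36, edgeR adjusted p = 0.0800) and Pacsin1 (1.88, SE 0.49, edgeR adjusted p = 0.0827). Their summed level, mostly Tcf4, was 122.7 to 151.6 CPM in NaCl and 129.1 to 156.3 CPM in H89-treated tumors. Of 10 neutrophil genes, 5 were tested, with 2 above 0 and 2 at an unadjusted p under 0.05 (Csf3r higher and Mmp8 lower, background 25.0%). Adjusted calls numbered 0 in edgeR (background 1.59%) and 1 in DESeq2 (Csf3r, background 10.4%). Ly6g was at 0 in all 6 tumors, and the sum was 17.9 to 21.8 CPM in NaCl and 21.6 to 37.9 CPM in H89-treated tumors. Of 9 keratinocyte genes, Krt1, Dsg1a and Ivl were at 0 in all tumors and 2 were tested. Cdsn, a protein of cornified skin, passed with a log2 fold change of -2.15 (SE 0.20, edgeR adjusted p = 0.0288, background 1.59%). The keratinocyte sum was 44.1 to 72.1 CPM in NaCl and 15.5 to 18.5 CPM in H89-treated tumors, and it was almost all Cdsn (41.2 to 68.4 CPM in NaCl and 10.6 to 14.0 CPM with H89). Krt10, the other gene tested, had 0.31 (SE 0.25, edgeR adjusted p = 0.465). Trp63 and Dsp, both under 0.5 CPM in the mean and not tested, were higher in each H89-treated tumor than in any NaCl tumor. The same held for 20.5% of the genes tested. The opposite held for Krt14, also under 0.5 CPM and not tested, and for 10.0% of the genes tested. Genes under the filter are not part of these shares.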

How the data were processed

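The authors sequenced total RNA of CT26 tumors on a BGISEQ-500 instrument. Per the labels, kallisto, DESeq2 and GRCm38 were used in the submitters' processing, with versions not given in the sources used here. The deposited table is called TPM but holds estimated counts, since each tumor's values sum to 27067349 to 31958793 and 58.6% to 61.4% of the values above 0 lie within 0.01 of a whole number. Tumors were grouped by their labels. The genes and lists were chosen with earlier results of these data known.

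Estimated counts were rounded, and genes with a mean of at least 0.5 CPM were tested with edgeR 4.0.16 (R 4.3.3, TMM, glmQLFit and glmQLFTest, treatment only), with Benjamini-Hochberg adjustment over all 13118 genes and a check on simulated data. CPM is the estimated count per 1000000 of the tumor's total, without TMM factors. SE was derived as |log2 fold change| over the root of the F statistic. Genes named are the 10 members, per list those with an adjusted p under 0.05 and up to 3 with the smallest p, and the 8 most like Gzmd and Gzmb. Other names (Gzmn, Mcpt8, Tcf4, Klk1, other list genes called by DESeq2, Trp63, Dsp, Krt14, Hdc, Ms4a2, Cma2, Il2, Il21 and genes at 0) were chosen after their values were seen. List counts use the fit alone, with no set test.

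The main test has no block, and same-numbered tumors did not deviate together. Alternatives were median ratio and quantile normalization (limma 3.58.1), DESeq2 1.42.0, no filter, at least 5 CPM, a replicate block, leaving out each tumor, and, for the ratio, other pseudocounts. Transcripts and positions are GENCODE M21 on GRCm38. Counting intervals cover counting error only.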

Additional observations from a re-analysis of the deposited data

How the results depend on the processing

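The number of genes with an adjusted p under 0.05, 208, was 80 under quantile normalization with limma, 1392 with DESeq2 without the filter, 251 with the median ratio, 311 without the filter and 197 at 5 CPM or more, and 0 to 12 with 1 tumor left out. With the replicate number as a block it was 0, while same-numbered tumors correlated at 0.16, 0.06 and -0.03 in their deviations. Gzma, Gzmb and Prf1 passed in 0 of 12 alternatives and Gzmm in 0 of 11, while Gzmk, under the filter, did not pass without it and had no adjusted p from DESeq2. The log2 fold change of Gzmm turned to -0.15 under quantile normalization and ran from -0.040 to 0.39 with a tumor left out, negative without NaCl tumor 2 (-0.029) or 3 (-0.040). That of Prf1 ran from -0.64 (no H89 tumor 3) to 1.54 (no NaCl tumor 1), and was -0.042 when NaCl tumor 3 was dropped. These fits use fewer tumors or another scaling, and the cause was not tested otherwise. The adjusted p lay between 0.224 and 0.494 for Gzma, 0.315 and 0.991 for Gzmb, and 0.320 and 0.981 for Prf1. The log2 ratio of the cluster to Gzmb lay between -3.31 and -1.84, and at -2.74 with no pseudocount, chosen after seeing the data. Counts of 3 to 48 for Gzmd to Gzmg in H89-treated tumors 1 and 2, and 3 tumors per group, limit the precision.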
